A study of Homo sapiens with 4 samples.

Results

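Creatine is a small guanidino compound that cells phosphorylate and use to buffer ATP. It is made in steps by GATM, which joins arginine and glycine to guanidinoacetate, and GAMT, which methylates guanidinoacetate with S-adenosylmethionine. It can also be taken up from outside by SLC6A8, a sodium- and chloride-coupled plasma membrane transporter of the SLC6 family. Creatine kinases then move phosphate between ATP and creatine. CKB and CKM are the cytosolic brain and muscle forms, CKMT1A and CKMT1B encode the ubiquitous mitochondrial form, and CKMT2 encodes the sarcomeric mitochondrial form. These 8 genes are described here, of 17687 genes named on the array. Each was taken from the array feature whose platform annotation gave that symbol alone, and each had 1 such feature. SLC6A8 was chosen by its measured change between the groups, the largest fall of all 17687 genes, and the other 7 because they share its pathway. The change of SLC6A8 is therefore described without a test.

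The RNA came from NB4-R4, which was derived from NB4, an acute promyelocytic leukaemia (APL) cell line, and is resistant to all-trans retinoic acid (ATRA), the drug that drives such cells to mature. All 4 cultures were NB4-R4 cells at 96 h. In 1 group of 2 the cells were given the CHK1 inhibitor MK-8776 at 4 µM, and in the other group of 2 they were given DMSO as the control. CHK1 is a kinase that holds back the cell cycle when DNA replication stalls, and the comparison asks which transcripts differ after this inhibitor in the resistant cells. Total RNA of live cells was measured on Affymetrix arrays, and values are RMA expression on the log2 scale, with a change being MK-8776 minus DMSO. Replicates are described as biological, without saying how the cultures were separated. The p-values thus reflect only the spread among these 4 samples, which may be technical. In the limma fit the spread of each gene is drawn toward that of all genes. The spread of all genes weighs more, with 6.3 prior against 2 residual degrees of freedom. The p-values and intervals therefore do not rest on a gene's own replicates alone. Array signals of different features are not on a common scale, so no level of a gene is ranked against that of another. The median of all values on the 4 arrays was 5.77 and the lower quartile 3.97, and they serve here to mark dim features. No detection call per feature was used.

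Of the measured myeloid markers, MPO, SPI1 and CD38 were above the upper quartile of all values (9.21) on every array. AZU1, CEBPE, CTSG and PRTN3 were under it on every array, and CSF3R had values on both sides of it. The lymphocyte marker CD79A was also above it on every array, so such a level was not particular to myeloid genes. MPO, the myeloperoxidase of primary granules, read 16.09 and 16.27 in DMSO and 14.81 and 15.36 in MK-8776, and SPI1, a myeloid transcription factor, read 11.01 and 11.86 in DMSO and 11.57 and 11.85 in MK-8776. In the limma fit over all 17687 genes 3.69% passed an adjusted p of 0.05 (1.66% rose and 2.02% fell), and 18.8% had an unadjusted p under 0.05. Of 8 measured myeloid markers 2 fell (CTSG and PRTN3, granule proteases) and 0 rose. At an unadjusted p under 0.05 there were 3 of the 8 (37.5%). MPO, with a change of -1.095, narrowly missed the threshold (adjusted p = 0.0514, limma). The sum of the values of all 8 was 75.65 and 79.81 in DMSO against 69.23 and 73.34 in MK-8776. Of 8 skeletal muscle markers 1 rose, DES, which encodes the filament protein desmin, from 9.18 and 9.76 to 10.57 and 10.73 (adjusted p = 0.0412, limma). ACTA1, the skeletal actin gene, was also above the median of all values on every array, with 9.14 and 9.15 in DMSO and 9.43 and 9.87 in MK-8776, whereas the other 6 muscle markers, MYH2 and MYOD1 among them, were under it on all 4 arrays. The sum of the muscle markers was 41.99 and 41.45 in DMSO against 44.76 and 44.33 in MK-8776. Of 5 lymphocyte markers CD3E, a T cell receptor chain gene, fell by 1.38, and the sum was 32.87 and 32.41 against 31.09 and 30.44. Of 5 neural and 4 erythroid markers 0 passed by limma, and at an unadjusted p under 0.05 there were 0 and 1. MBP and RBFOX3 had the largest changes of the neural markers, at 0.445 and 0.415 (adjusted p = 0.314 and 0.327, limma). The globin genes HBB and HBA1 had those of the erythroid markers, at 0.775 and 0.475 (adjusted p = 0.0934 and 0.343, limma). MPO, SPI1, ACTA1, MYH2, MYOD1 and CD79A were picked out after their values were seen, and all measured myeloid markers are named. In bulk RNA, fewer cells of a type and less RNA per cell cannot be told apart, and the part of these markers in the results below was not tested.

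SLC6A8 was the transcript of the pathway that differed most between the groups. The gene spans chromosome X, 153687926 to 153696593 (GRCh38). Its feature (TC0X00008794.hg.1) read 13.24 and 14.41 on the DMSO arrays and 9.56 and 9.81 on the MK-8776 arrays. Both MK-8776 arrays thus lay below both DMSO arrays, and the lowest DMSO array was 3.43 above the highest MK-8776 array. The means were 13.83 ± 0.83 in DMSO and 9.69 ± 0.18 in MK-8776 (SD, n = 2). The change was -4.14, so the DMSO signal was 17.6 times the MK-8776 signal. The SE of this change in the limma fit was 0.36, which is drawn toward the spread of all genes and is smaller than these SDs alone give. The gene next to it in the order of falls was ALDOC, at -4.12. All 4 values of SLC6A8 were above the median of all values, so the lower group was not among the dim features of the array. The DMSO arrays differed from one another by 1.17 in this gene, a gap reached by 0.752% of all genes, whereas the MK-8776 arrays differed by 0.25, a gap reached by 49.1%. The change was -3.56 without DMSO replicate 2 and -4.73 without DMSO replicate 1. The gene table also lists 2 transcribed pseudogenes on chromosome 16, SLC6A10P and SLC6A10PB, which are copies of SLC6A8. Neither is named for a feature of the array, and whether their RNA adds to the SLC6A8 signal is uncertain.

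**Figure D1:**
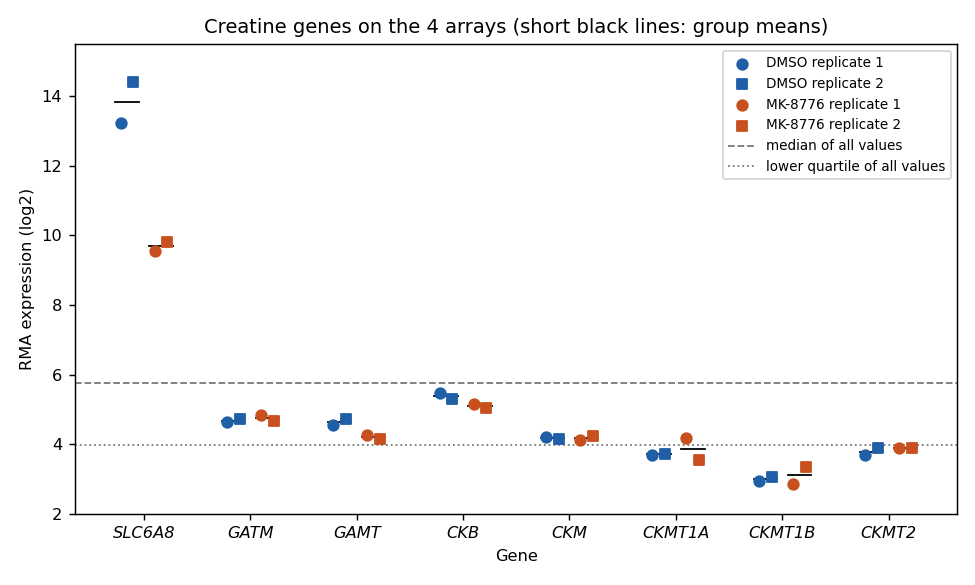
RMA expression (log2) of the 8 creatine genes on each of the 4 arrays, with DMSO in blue, MK-8776 in orange, circles for replicate 1, squares for replicate 2 and short black lines for group means. SLC6A8 is at 13.24 and 14.41 in DMSO and at 9.56 and 9.81 in MK-8776, and all 28 values of the other 7 genes lie under the dashed median of all values (5.77).

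The other 7 genes of the pathway were dim in both groups. All 28 of their values lay under the median of all values, from 2.87 to 5.47, and 11 of the 28 lay under the lower quartile. In the limma fit over all genes 0 of the 7 passed an adjusted p of 0.05, and 0 had an unadjusted p under 0.05. Of all genes, 3.69% passed. With SLC6A8, 1 of the 8 passed, and since that gene was chosen for its fall nothing is read from this count. Among the 7, the changes ran from -0.425 to 0.16 with a median of 0.08, against 0.005 over all genes. Their 95% intervals together reached from -0.90 to 0.74, so a change in signal of up to 1.86-fold is compatible with the spread used in the fit. These intervals describe signal and set no bound on a change in RNA. Features this dim may not show such a change, and no detection call was used.

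Of the synthesis enzymes, GATM (chromosome 15, 45361124 to 45402227), the amidinotransferase of the first step, read 4.63 and 4.72 in DMSO and 4.84 and 4.67 in MK-8776. Its groups overlapped, and the change was 0.08 (95% interval -0.39 to 0.55, adjusted p = 0.888, limma). GAMT (chromosome 19, 1397026 to 1401542), the methyltransferase of the second step, read 4.55 and 4.71 in DMSO and 4.25 and 4.16 in MK-8776. Here both MK-8776 arrays were below both DMSO arrays, with a change of -0.425 (95% interval -0.90 to 0.05, adjusted p = 0.317, limma), which missed the threshold. Groups without overlap were found in 48.2% of all genes, 24.2% with MK-8776 lower and 24% with MK-8776 higher, so 3 of 7 such genes here (GAMT, CKB and CKMT2) is near the share over the array.

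Of the cytosolic kinases, CKB (chromosome 14, 103519667 to 103522830), the brain-type subunit, read 5.47 and 5.29 in DMSO and 5.15 and 5.05 in MK-8776. Both MK-8776 values were lower, but the change of -0.28 (95% interval -0.75 to 0.19, adjusted p = 0.541, limma) did not pass. CKM (chromosome 19, 45306413 to 45322875), the muscle-type subunit, read 4.2 and 4.16 in DMSO and 4.13 and 4.24 in MK-8776. Its groups overlapped around a change of 0.005 (95% interval -0.46 to 0.47), and its sign turned to -0.02 after quantile normalization.

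Of the mitochondrial kinases, CKMT1A (chromosome 15, 43692786 to 43699222) read 3.69 and 3.73 in DMSO and 4.19 and 3.55 in MK-8776. Its MK-8776 arrays fell on either side of the DMSO arrays, with a change of 0.16 (95% interval -0.42 to 0.74). CKMT1B (chromosome 15, 43592857 to 43599406) read 2.93 and 3.05 in DMSO and 2.87 and 3.35 in MK-8776, which overlap in the same way, with a change of 0.12 (95% interval -0.42 to 0.66). In the pair of copies it was replicate 1 of MK-8776 that was the higher for CKMT1A and replicate 2 for CKMT1B. CKMT1A and CKMT1B are copies of one gene whose starts lie 99.9 kb apart, and in RefSeq (GRCh38.p14) their start windows of 300 bases share an identical run of 275 bases. How the signal of these 2 features divides between the copies is uncertain. CKMT2 (chromosome 5, 81233322 to 81266398) read 3.68 and 3.88 in DMSO and 3.89 on both MK-8776 arrays, a change of 0.11 (95% interval -0.36 to 0.58) with all 4 values under the lower quartile. For these 3 kinase genes limma gave an adjusted p between 0.804 and 0.844.

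**Figure D2:**
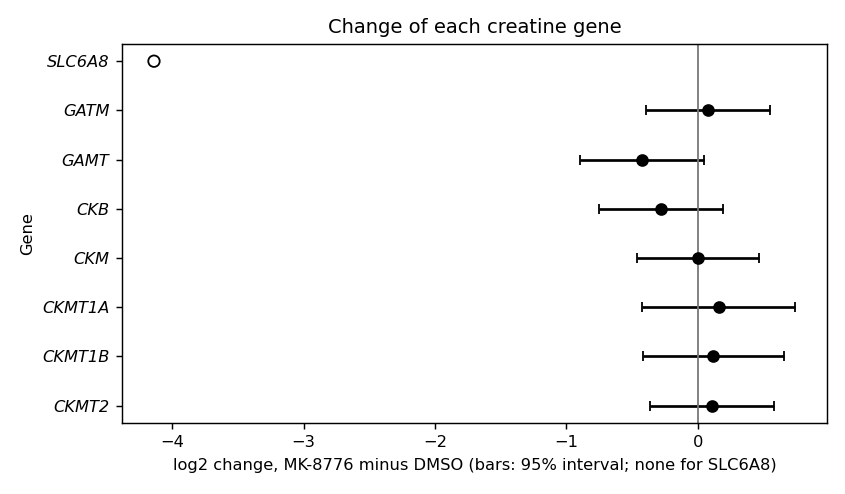
Log2 change (MK-8776 minus DMSO) of the 8 creatine genes, with points for the estimate and, for the 7 genes tested, bars for the 95% interval of the limma fit. SLC6A8, the open point, stands at -4.14 with no interval because it was chosen for this change, and the intervals of the 7 all include 0.

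The genes around SLC6A8 on chromosome X were compared next. Of 12 measured genes within 200 kb of SLC6A8, 0 passed in the limma fit and 2 had an unadjusted p under 0.05 (16.7%, against 18.8% of all genes), with a median change of -0.05. The largest changes were in PLXNB3, a plexin gene, at 0.66 (adjusted p = 0.260), and in L1CAM, a neural adhesion gene, at 0.48 (adjusted p = 0.258, limma). Downstream, BCAP31, which encodes an endoplasmic reticulum membrane protein, read 13.08 and 13.40 in DMSO and 13.67 and 13.39 in MK-8776, a change of 0.29 (95% interval -0.23 to 0.81). IDH3G, which encodes a subunit of mitochondrial isocitrate dehydrogenase, was at 0.19 (95% interval -0.27 to 0.65). PNCK, a calcium- and calmodulin-dependent kinase gene, starts on the opposite strand and points away from SLC6A8. Its feature was dim in both groups, with 3.98 and 3.46 in DMSO and 3.54 and 3.55 in MK-8776, a change of -0.175 (95% interval -0.72 to 0.37). BCAP31, IDH3G and PNCK were picked out after their values were seen.

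**Figure D3:**
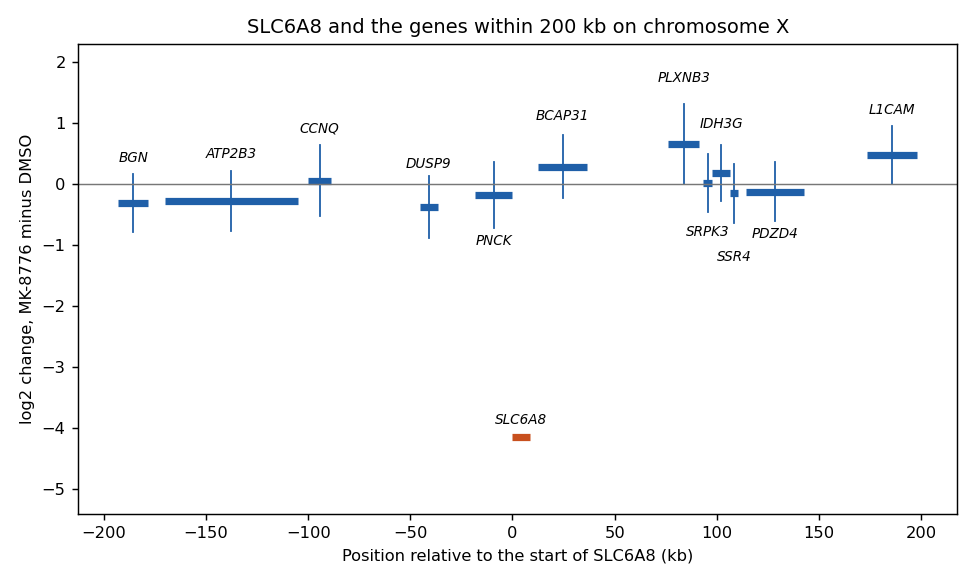
Log2 change (MK-8776 minus DMSO) of SLC6A8, in orange, and of the 12 measured genes within 200 kb, in blue, against position relative to the SLC6A8 start in kb. Thick bars span each gene and thin lines are 95% intervals of the limma fit (none for SLC6A8, which was chosen for its change), and SLC6A8 at -4.14 stands below neighbours that run from -0.375 to 0.66.

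The starts of PNCK and SLC6A8 are separated by 154 bases, which hold the sequence upstream of both genes. That stretch is shown because it lies directly upstream of the gene that differed. The sequence upstream of ALDOC, the gene whose values were the most similar, is shown with it. Whether either stretch regulates its gene was not tested. RefSeq gives them on GRCh38.p14 as chrX:153687772-153687925, read on the plus strand, and chr17:28576896-28577145, read on the minus strand, both 5′ to 3′ toward the named gene. Capitals mark GGGCGG (the GC box) and ACGTG, each searched on both strands. ACGTG is a form of the core of hypoxia response elements, and the CACGTG E-box contains it. Other forms of that core were not searched.
SLC6A8: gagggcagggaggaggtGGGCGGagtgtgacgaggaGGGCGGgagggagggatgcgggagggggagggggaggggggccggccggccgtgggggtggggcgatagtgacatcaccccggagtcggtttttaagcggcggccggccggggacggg
ALDOC: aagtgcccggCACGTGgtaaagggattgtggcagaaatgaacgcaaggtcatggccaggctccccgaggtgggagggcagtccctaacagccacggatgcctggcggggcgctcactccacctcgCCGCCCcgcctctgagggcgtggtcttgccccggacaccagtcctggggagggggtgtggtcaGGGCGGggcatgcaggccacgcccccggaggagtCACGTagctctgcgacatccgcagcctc
The SLC6A8 stretch holds 2 GC boxes and 0 places with ACGTG, and 75.3% of its bases are G or C. GC boxes occur in 37.1% and ACGTG in 12.9% of the 154 bases upstream of all 35116 starts in the table. The ALDOC stretch, of 250 bases, holds 2 GC boxes and 2 places with ACGTG, of which 1 is CACGTG. Over 250 bases, a window that reaches into PNCK, SLC6A8 has 4 GC boxes and 0 places with ACGTG. In windows of 250 bases the shares over all starts are 42.6% for the GC box and 18.5% for ACGTG. Of the creatine genes, 7 have an entry in the table (GAMT has none), all 7 with a GC box in at least 1 window and 3 with ACGTG (GATM, CKMT1A and CKMT1B). CKMT1A has 5 windows and CKMT1B, its copy, has 2, so these counts per gene cannot be compared with the shares per window. A match to these letters is a description of the sequence and no evidence of binding.

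The genes whose values were most like those of SLC6A8 were found by centring each gene on its mean over the 4 arrays and taking the root mean square difference on the log2 scale. ALDOC, which encodes a glycolytic aldolase, was nearest at 0.356. It read 12.28 and 12.98 in DMSO and 7.94 and 9.08 in MK-8776. SCD, which encodes a fatty acid desaturase, followed at 0.621, with 11.24 and 12.49 in DMSO and 8.56 and 9.28 in MK-8776. In both genes, as in SLC6A8, DMSO replicate 2 was above DMSO replicate 1 and MK-8776 replicate 2 above MK-8776 replicate 1. The next were NRN1, which encodes neuritin, at 0.757, FAM72D at 0.776 and the transcription factor gene MYC at 0.787. The same order of replicates held in these genes too. In FAM72D the DMSO replicates differed by only 0.03. The measure uses the same 4 values, so it also favours genes with the same order of replicates. All 5 are among the genes with large falls, which the measure favours since SLC6A8 has the largest, and likeness over 4 arrays carries no test.

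**Figure D4:**
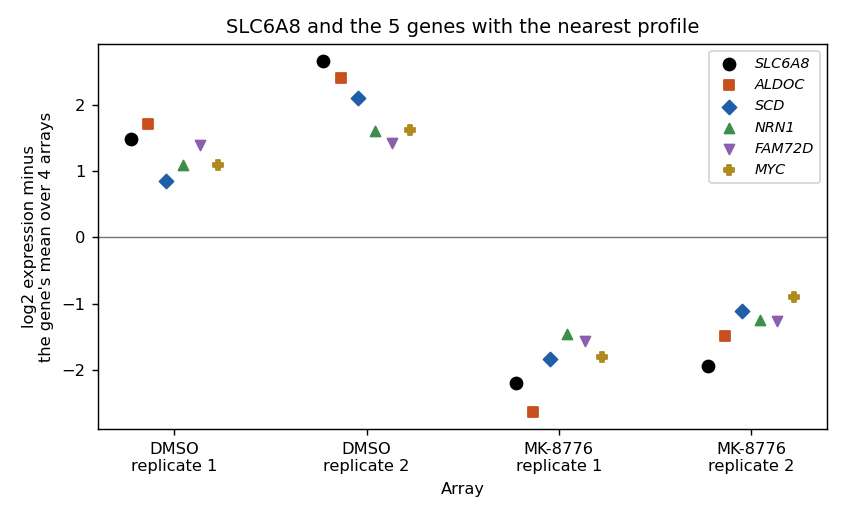
Log2 expression minus each gene's own mean over the 4 arrays, for SLC6A8 (black) and the 5 genes with the nearest values, by array. SLC6A8 and ALDOC, with changes of -4.14 and -4.12, lie farther from 0 than the other 4 genes on each of the 4 arrays.

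Of 88 measured genes that were not members, 1 rose and 3 fell, which is 4.55% against 3.69% of all genes, and their median change was 0.02. At an unadjusted p under 0.05 there were 27 of the 88, or 30.7%, against 18.8% of all genes. Of the 88, 33 lay under the median of all values on every array, and levels were not matched between the 88 and all genes. The difference between these shares was not tested. Without any 1 of the 4 arrays, 0 of the 88 passed, and with a variance trend 14 of them did, where 1185 of all genes passed. Other routes of creatine and guanidinoacetate across membranes gave 0 calls of 5 in the limma fit and 1 gene (20%) at an unadjusted p under 0.05. This was SLC6A6, the taurine transporter, which also carries guanidinoacetate. It read 11.34 and 11.42 in DMSO and 12.30 and 12.06 in MK-8776. Both MK-8776 arrays were higher, by 0.80 on average (SE 0.21), and the change missed the threshold (adjusted p = 0.0823, limma) but passed when a variance trend was fitted or when features under the median level were left out. SLC16A12, a creatine exporter of the monocarboxylate transporter family, read 3.11 and 2.90 in DMSO and 3.09 and 3.79 in MK-8776, under the lower quartile throughout.

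Of the SLC6 family apart from SLC6A8, 17 genes were measured and 0 passed in the limma fit (2 had an unadjusted p under 0.05, or 11.8%). Their changes ran from -0.48 to 0.80 with a median of 0.12, and 13 of the 17 lay under the median of all values on every array. Besides SLC6A6, the glycine transporter gene SLC6A9 had the largest change, 0.66 (adjusted p = 0.200, limma), from 7.15 and 6.56 in DMSO to 7.52 and 7.51 in MK-8776.

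Of 15 genes of arginine uptake, synthesis and breakdown, which handle a substrate of GATM, 1 fell, 0 rose and 14 did not pass (6 had an unadjusted p under 0.05, or 40%, against 18.8% of all genes). ALDH18A1, which encodes pyrroline-5-carboxylate synthase, an enzyme on the way from glutamate to proline and ornithine, read 11.98 and 11.81 in DMSO and 10.61 and 10.88 in MK-8776. Its groups were well apart, and it fell by 1.15 (SE 0.22, adjusted p = 0.0292, limma). Of 8 measured genes of glycine supply, for the other substrate of GATM, 1 fell, 0 rose and 7 did not pass (4 had an unadjusted p under 0.05, or 50%). PHGDH, the entry enzyme of serine synthesis, from which glycine is made, read 10.52 and 10.80 in DMSO and 9.27 and 9.72 in MK-8776. It fell by 1.17 (SE 0.24, adjusted p = 0.0382, limma) without overlap between the groups. PSPH, the last enzyme of that same route, was higher by 1.05 and narrowly missed the threshold (adjusted p = 0.0507, limma). It was picked out after its value was seen.

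Of 14 genes of the methyl donor cycle 0 passed by limma, 3 had an unadjusted p under 0.05 (21.4%, against 18.8% of all genes), with a median change of 0. The largest changes were in AHCY, which hydrolyses the S-adenosylhomocysteine that GAMT releases, at -1 (adjusted p = 0.147), and in its relative AHCYL1 at -0.77 (adjusted p = 0.0818, limma). AHCY read 11.60 and 12.55 in DMSO and 10.84 and 11.31 in MK-8776, and its DMSO arrays lay nearly as far apart as the group means. The list called polyamine synthesis, a route that uses ornithine and S-adenosylmethionine, also holds genes of polyamine breakdown and control. Of its 10 measured genes 1 rose, 0 fell and 9 did not pass (4 had an unadjusted p under 0.05, or 40%). SMOX, the gene of spermine oxidase, which breaks spermine down, read 8.61 and 7.99 in DMSO and 9.85 and 9.89 in MK-8776. Both treated arrays were higher, and it rose by 1.57 (SE 0.25, adjusted p = 0.0175, limma).

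Of the other genes of ATP buffering, 15 encoding adenylate kinases, AMP deaminases and AMPK subunits were measured, and 1 fell, 0 rose and 14 did not pass (6 had an unadjusted p under 0.05, or 40%). AK4, a mitochondrial adenylate kinase gene, read 7.74 and 7.57 in DMSO and 5.73 and 6.15 in MK-8776. It fell by 1.72 (SE 0.23, adjusted p = 0.00871, limma), and its MK-8776 values were close to the median of all values. Of 7 measured pores and carriers that pass ATP and phosphate across the mitochondrial membranes, 0 passed in the limma fit and 3 had an unadjusted p under 0.05 (42.9%, against 18.8% of all genes). The calcium-regulated ATP-magnesium carrier gene SLC25A24 was at 0.90 (adjusted p = 0.119) and the outer membrane channel gene VDAC1 at -0.565 (adjusted p = 0.181, limma).

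**Figure D5:**
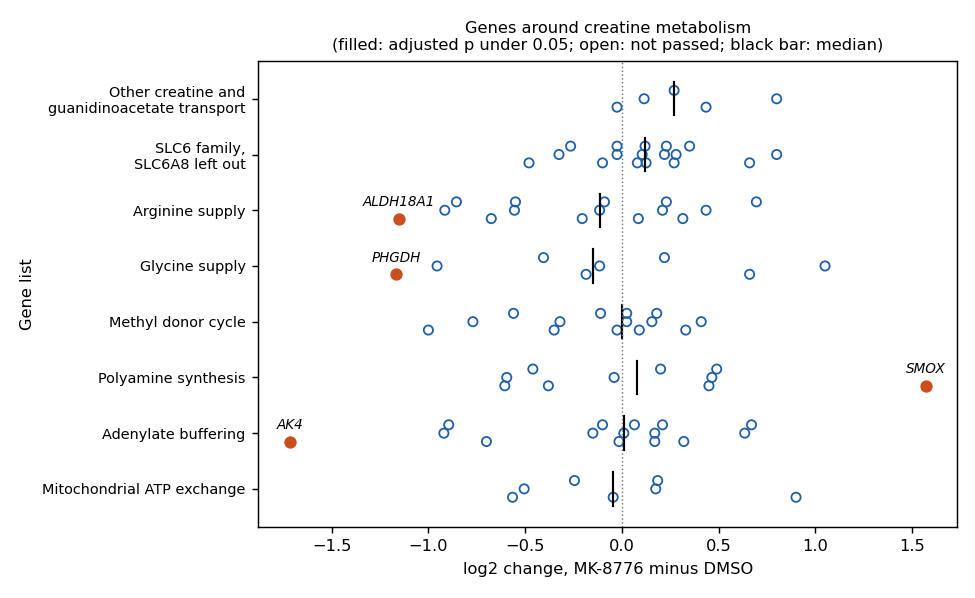
Log2 change (MK-8776 minus DMSO) of each measured gene in 8 lists around creatine metabolism, with filled orange points for genes past an adjusted p of 0.05, open points for the rest and black bars for list medians. The filled points are AK4, PHGDH, ALDH18A1 and SMOX, and all list medians lie between -0.15 and 0.27.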

How the data were processed

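Total RNA of 4 NB4-R4 cultures, 2 per group, was measured on Affymetrix arrays. The deposited values are log2 expression per feature, made by the authors with RMA on hg38 per the submitters' processing notes. The RMA version is not given in the sources used here. Values ran from 2.16 to 18.54, with array medians of 5.76 to 5.79, and were read as log2 from that range, so a variant of RMA with another scale would alter the size of changes. RMA makes arrays alike in distribution, so changes are relative to other genes. The number of arrays limits the precision.

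Of 21448 features, 17709 had 1 gene symbol, 0 had several and 3739 had none. All 17709 matched the RefSeq gene table (GRCh38.p14). The feature with the highest mean was kept for each of 20 genes with several, which left 17687 genes. Fits used lmFit and eBayes of limma 3.58.1 under R 4.3.3, two-sided and without leaving out dim features, comparing MK-8776 with DMSO, and p-values were adjusted by Benjamini-Hochberg over all 17687 genes, with a threshold of 0.05. An exact permutation test of 2 against 2 cannot go below p = 0.333, so it was not used. On simulated data of 17687 genes the fit recovered 16.3% of changes of 1 (log2) and 95.2% of changes of 2. Fewer genes were changed there than were called in these data, and recovery depends on that number, so these shares may not hold here. Array values correlated at 0.993 within both groups and at 0.981 to 0.989 between them.

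The members and lists were chosen with earlier results of these data known. Named are all 8 members, and of each other list up to 4 genes past the threshold with the largest change (with none, the 2 largest changes). The 5 genes nearest to SLC6A8 are named too. List members without a single-symbol feature were not analysed here. Alternatives were a variance trend (also robust), a replicate block, quantile normalization, median centring, testing features above the median level alone, testing all features, and leaving out each array. Promoter sequences are from RefSeq. Figures were drawn with matplotlib 3.10.9.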

Additional observations from a re-analysis of the deposited data

How the results depend on the processing

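The change of SLC6A8 kept its direction under every alternative run and ran from -4.73 to -3.56 when each array was left out in turn. The other members passed under none of the alternatives. The 7 dim members drop out when features are restricted to those above the median level, so that setting gives them no value, and no member has another feature to take in its place. Leaving out arrays, GATM ran from -0.005 to 0.165, GAMT from -0.505 to -0.345, CKB from -0.37 to -0.19, CKM from -0.05 to 0.06, CKMT1A from -0.16 to 0.48, CKMT1B from -0.12 to 0.36 and CKMT2 from 0.01 to 0.21. CKM turned to -0.024 after quantile normalization. With all 4 arrays and none of these alternatives 652 genes were called (294 up, 358 down). Leaving out arrays it called 0 to 34 (0 to 23 up and 0 to 11 down), with 1815 to 3017 genes at an unadjusted p under 0.05, and each list, the creatine members included, had 0 calls in each case. A variance trend called 1185 genes (547 up, 638 down), or 1162 with robust estimation (530 up, 632 down). With only features above the median level 942 were called, 538 of them falls. With either trend there were 3 calls each for arginine supply and glycine supply, 2 each for polyamine synthesis, adenylate buffering and mitochondrial ATP exchange, and 1 each for the methyl donor cycle and for other creatine and guanidinoacetate transport, 14 in all over the 88 related genes. That last call is SLC6A6, which is then also the 1 call of the SLC6 family apart from SLC6A8. Above the median level, glycine supply had 3 calls and the methyl donor cycle and other creatine transport 1 each, with 8 in all, and after median centring glycine supply had 2. With a replicate block 309 genes were called (133 up, 176 down), of which 1 was among the 88 (AK4), and 0 in arginine supply, glycine supply and polyamine synthesis, where ALDH18A1, PHGDH and SMOX had an adjusted p of 0.0704, 0.0581 and 0.0514 (limma). Both groups carry the replicate numbers 1 and 2, and the deviations of arrays with the same number correlated at 0.139 across genes. Nothing in the labels says whether arrays with the same number share a culture or day, so whether they are paired is not known. The cause of these shifts was not tested.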
